A study of Mus musculus with 6 samples.

Results

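Nonclassical MHC class I genes encode relatives of the transplantation antigens H2-K1 and H2-D1 that vary little between individuals and mostly serve as ligands for specialised lymphocytes. The 10 genes described here were taken from a list of symbols (H2-T3, H2-T23, H2-T22, H2-T10, H2-Q1, H2-Q2, H2-Q4, H2-M3, Cd1d1 and Mr1). No threshold on a measured value was used, but the list was drawn up with earlier results of these data known. Of these 10, 9 had a row among the 27998 genes of the deposited table, and H2-T10 was not analysed here. All 9 had at least 1 UMI, the unique tag that marks 1 captured RNA molecule.

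Epithelial cells of the small intestine were profiled with 10x droplet libraries that count the 3′ ends of transcripts. There were 3 libraries labelled Itgb7 KO (genotype Itgb7-/-) and 3 wild-type libraries. All came from C57BL/6J mice 8 weeks old, and no other allele or agent was labelled. Per the series title, the study concerned T cells that carry the αEβ7 integrin, whose β7 chain Itgb7 encodes, and the fate of intestinal stem cells. Nothing in the labels says how many animals went into a library. The p-values below therefore cover the differences among libraries of a group, and these may be technical.

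The libraries held 28475253 to 76133693 UMIs, with medians of 6079.5 to 22384 UMIs per barcode. Replicate 1 of both groups stood apart as the deepest, with medians of 19529 UMIs (Itgb7 KO) and 22384 UMIs (wild type), against at most 12103 in the other 4 libraries. Of 26153 barcodes, 25068 cells were kept, and 23501 fell into 9 epithelial classes named from marker genes. Pairs of libraries shared 0.433% to 1.05% of the barcode sequences of the smaller library. The Itgb7 transcript did not follow the label: it had 0.280, 0.550 and 0.434 CPM (counts per 1000000 UMIs) in the libraries labelled Itgb7 KO, against 0.0426, 0.0721 and 0.0175 CPM in the wild-type libraries (log2 fold change 3.14, edgeR adjusted p = 0.541). A 3′ tag may lie outside the deleted part, so the genotype could not be checked by it, and an exchange of labels was not tested. Every direction between genotypes below rests on the labels.

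Class I molecules are displayed on the cell surface, most of them together with the light chain B2m. Classical ones show peptides, supplied by the Tap transporter, to CD8 T cells. The nonclassical ones differ in what they hold and in who reads them, and the intestinal epithelium, which is filled with intraepithelial lymphocytes, is a tissue in which several are known to be made. H2-T3 encodes the thymus leukaemia antigen, a mouse protein that binds the CD8αα homodimer of intraepithelial T cells. H2-T23 encodes Qa-1, which shows leader peptides of other class I molecules to CD94/NKG2 receptors. H2-T22 is a ligand for a subset of mouse γδ T cells, as is the closely related H2-T10. H2-M3 presents peptides that start with N-formylmethionine, Cd1d1 presents lipids to natural killer T cells, and Mr1 presents microbial vitamin B metabolites to MAIT cells. H2-Q1, H2-Q2 and H2-Q4 belong to the Qa region of the same complex.

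By identifier in GENCODE M21, an annotation of the mm10 build, 8 of the 10 listed genes lie in the H2 complex on chromosome 17. The Q genes are on the plus strand, with H2-Q1 at chr17:35320405-35325099, H2-Q2 at chr17:35342242-35346762 and H2-Q4 at chr17:35379617-35385290. The T genes are on the minus strand, with H2-T23 at chr17:36029773-36032855, H2-T22 at chr17:36037128-36042747, H2-T10 at chr17:36115876-36121465 and H2-T3 at chr17:36185572-36190287. H2-M3 lies at chr17:37270220-37274484 on the plus strand. Outside the complex, Cd1d1 lies at chr3:86995834-86999441 and Mr1 at chr1:155127277-155146814, both on the minus strand.

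Copies in this family share sequence, which limits 3′ counting. The last 500 bases of each transcript were cut into 401 overlapping windows of 100 bases and looked for in the other transcripts. H2-T22 shared 85 windows (21.2%) with H2-T10, at 98.6% identity over 500 bases, so molecules of these 2 genes cannot be fully told apart and H2-T22 values may have gained or lost reads. H2-T23 shared 39 windows (9.73%) with Rab33b and Hook2, and H2-Q4 shared 26 (6.48%) with 4 other genes. H2-Q1 shared 4 (0.998%) with H2-Q2, at 95.4% identity over 501 bases. H2-T3, H2-Q2, H2-M3, Cd1d1 and Mr1 shared none in full.

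RefSeq (GRCm38.p6) promoter windows, 250 bases before to 50 after the start, were matched by symbol for 7 of the 10 genes. Shown are 3 members that were lower in crypt than in villus cells and, beside them, H2-M3, which was higher. Capitals mark TTTCACTT (interferon-response-like), TGACGC (X2-like) and the letters of the CCAAT box. That box is marked where it was found on either strand of the window, and where it lies on the other strand the printed letters read ATTGG. H2-T3 is at chr17:36190102-36190401 (minus strand), H2-T23 at chr17:36032652-36032951 (minus strand), H2-Q2 at chr17:35342057-35342356 (plus strand) and H2-M3 at chr17:37269984-37270283 (plus strand).
H2-T3: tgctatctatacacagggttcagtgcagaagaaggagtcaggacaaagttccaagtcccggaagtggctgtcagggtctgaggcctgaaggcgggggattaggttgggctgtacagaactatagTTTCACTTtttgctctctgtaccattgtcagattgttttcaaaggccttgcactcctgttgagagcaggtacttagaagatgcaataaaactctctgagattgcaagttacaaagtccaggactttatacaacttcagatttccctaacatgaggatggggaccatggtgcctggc
H2-T23: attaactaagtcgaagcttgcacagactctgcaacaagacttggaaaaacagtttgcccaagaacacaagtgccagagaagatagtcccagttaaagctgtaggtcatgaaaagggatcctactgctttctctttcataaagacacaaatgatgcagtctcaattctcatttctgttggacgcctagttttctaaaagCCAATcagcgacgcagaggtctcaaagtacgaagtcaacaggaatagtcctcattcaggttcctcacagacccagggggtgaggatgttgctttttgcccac
H2-Q2: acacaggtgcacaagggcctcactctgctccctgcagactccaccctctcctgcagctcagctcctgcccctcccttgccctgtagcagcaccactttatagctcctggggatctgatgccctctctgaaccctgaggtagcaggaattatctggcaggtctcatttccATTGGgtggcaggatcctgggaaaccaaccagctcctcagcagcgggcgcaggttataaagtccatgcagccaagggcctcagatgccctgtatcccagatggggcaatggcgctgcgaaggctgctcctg
H2-M3: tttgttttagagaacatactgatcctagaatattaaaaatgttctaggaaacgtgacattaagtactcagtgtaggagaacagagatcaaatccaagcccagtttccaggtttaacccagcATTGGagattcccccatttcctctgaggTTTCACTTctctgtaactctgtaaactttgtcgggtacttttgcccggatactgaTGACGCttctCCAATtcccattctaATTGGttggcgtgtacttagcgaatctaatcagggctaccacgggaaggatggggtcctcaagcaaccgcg

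All motifs were searched on both strands, and they were chosen with the sequences in view. TTTCACTT occurs in 1.60% of the 32851 promoter windows and was found in H2-T3, H2-T22, H2-Q4 and H2-M3, as in H2-K1 and H2-D1. TGACGC, in 7.40% of windows, was found in H2-Q4, H2-M3, H2-K1 and H2-D1. In H2-M3, H2-K1 and H2-D1 it lay before the start, on the strand of the gene. The H2-Q4 match lay after the start, on the opposite strand, so it did not share their position. CCAAT, in 37.4% of windows, was found in H2-T23, H2-T22, H2-Q2, H2-Q4 and H2-M3 but not in H2-T3 or Mr1. A match is a description of letters, not of binding.

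Over the kept cells H2-T3 had 17512 UMIs, H2-T23 9932, H2-T22 8030, H2-Q1 3602, H2-Q2 34088, H2-Q4 7919, H2-M3 1690 and Cd1d1 473. Mr1 had 3 UMIs in all, each in transit-amplifying-like cells of a different wild-type library. That puts Mr1 at 0.00901 CPM (exact Poisson 95% interval 0.00186 to 0.0263, covering counting error only), too low for the edgeR tests. Elsewhere Mr1 was at 0: in the 4675 mature enterocyte-like cells, for example, 0 UMIs allow up to 0.0539 CPM (3 counts of the total).

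The 8 measured members did not share a pattern over the epithelium. H2-T3, H2-Q1 and H2-Q2 had their highest mean in mature enterocyte-like cells. H2-T23, H2-T22 and H2-M3 had theirs in goblet-like cells, the mucus makers. Cd1d1 had its highest mean in enteroendocrine-like cells, the hormone makers. H2-Q4 was close to even, with class means of 14.97 CPM in Paneth-like cells to 30.1 CPM in stem-like cells. Of the 56 neighbour pairs in these 8 orders, 15 ran the same way in all 6 libraries. The smallest exact paired permutation p that 6 libraries allow is 0.03125, and after adjustment over the 56 pairs 0 passed, so neighbouring classes cannot be ranked by that test.

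**Figure D1:**
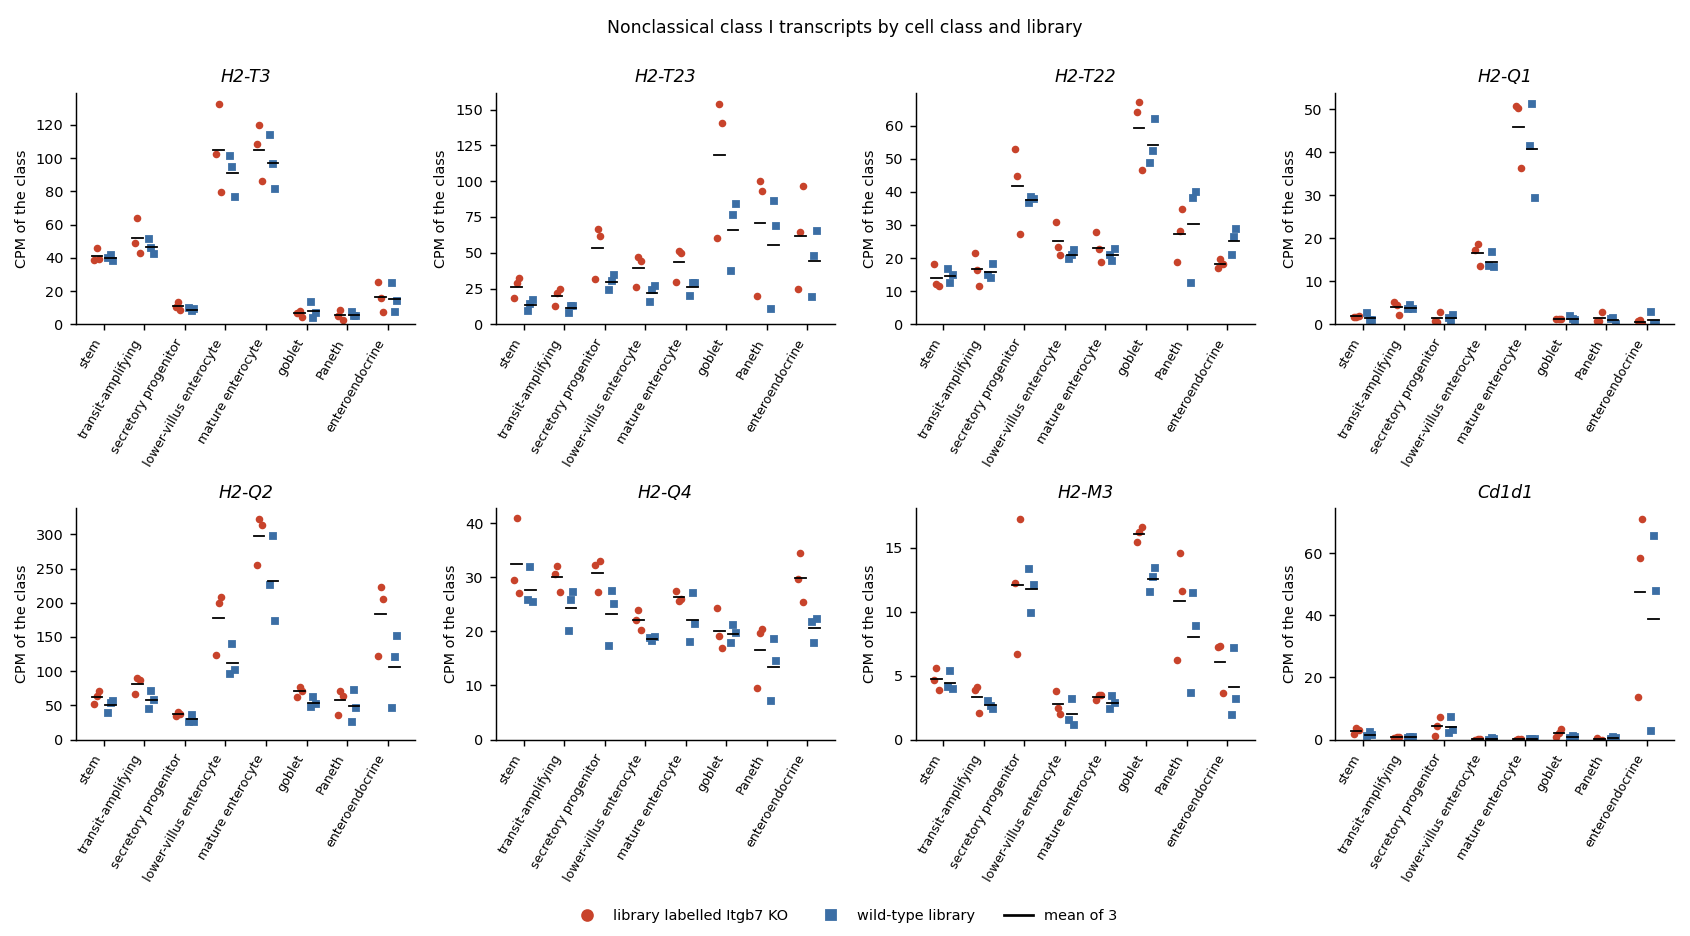
CPM of 8 nonclassical class I transcripts (linear y axis, from 0) in 8 cell classes, with a point for each library and a bar for the mean of the 3 libraries of a group; circles are libraries labelled Itgb7 KO and squares wild-type libraries. H2-T3 and H2-Q1 are high in enterocytes and low in the 3 secretory classes, H2-T23, H2-T22 and H2-M3 peak in goblet-like cells, and Cd1d1 stands out in enteroendocrine-like cells.

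H2-T3 marked the absorptive line. Mature enterocyte-like cells had 109, 120 and 86.0 CPM in the libraries labelled Itgb7 KO (replicates 1, 2 and 3) and 114, 96.4 and 81.6 CPM in the wild-type libraries. Stem-like cells already had 38.1 to 45.9 CPM and transit-amplifying-like cells 42.6 to 64.1 CPM over the 6 libraries. Secretory progenitor-like cells had 7.78 to 13.3 CPM, below every stem-like value. The 4 absorptive and stem classes thus stood above the progenitors of the secretory line in each library. Goblet-like cells had 3.63 to 13.6 CPM and Paneth-like cells 2.91 to 8.58 CPM, and these ranges overlapped each other and that of the secretory progenitors. Enteroendocrine-like cells had 7.17 to 25.7 CPM.

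H2-Q1 was high in enterocytes and low elsewhere. It had 29.4 to 51.1 CPM in mature enterocyte-like cells, 13.3 to 18.6 CPM in lower-villus enterocyte-like cells and 2.103 to 5.22 CPM in transit-amplifying-like cells. In the stem-like, secretory progenitor-like, goblet-like, Paneth-like and enteroendocrine-like classes no library passed 2.91 CPM. Free RNA in the droplets sets a floor for such low values. Of 6 enterocyte transcripts listed as a gauge of it, Apoa1, Apoa4, Apoc3 and Alpi stood in goblet-like cells at 2.36% to 4.71% of their mature enterocyte level. The others, Fabp2 (62.8%) and Ada (172%), stood far higher and gave no floor. H2-Q1 stood at 2.97%, within the range of the 4 low transcripts, so its UMIs there cannot be told from free RNA by this gauge. Whether goblet-like cells make it at a low level was not tested. H2-T3 stood at 7.22%, with 3.77% to 12.0% over the libraries, which overlaps the 2.91% to 8.02% of Alpi. H2-Q2 stood at 23.4%.

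H2-Q2 had 256, 323 and 314 CPM in mature enterocyte-like cells of the libraries labelled Itgb7 KO and 225, 298 and 173 CPM in those of the wild-type libraries. Its next class by mean was enteroendocrine-like, with 123, 224 and 205 CPM (Itgb7 KO) and 46.4, 121 and 151 CPM (wild type). Within that class a cluster led by peptide hormone genes had 213 CPM and a cluster led by Neurog3, the factor that starts the enteroendocrine line, had 57.9 CPM. Among enterocytes a single cluster of 531 mature cells had the highest pooled level of both Q genes, 99.3 CPM for H2-Q1 and 465 CPM for H2-Q2.

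H2-T23 was highest in goblet-like cells, with 60.4, 154 and 140 CPM in the libraries labelled Itgb7 KO and 37.1, 76.1 and 83.8 CPM in the wild-type libraries. Replicate 1 was the lowest of its group in both. Paneth-like cells had 19.6, 100 and 93.0 CPM (Itgb7 KO) and 10.7, 86.1 and 68.4 CPM (wild type). That class was not the same cells in every library: a Paneth-like cluster with 6.84 CPM of H2-T23 pooled over libraries (library median 15.96 CPM, highest 49.6 CPM) held 78, 17 and 6 cells in the libraries labelled Itgb7 KO and 106, 5 and 7 in the wild-type libraries. Its part in the spread was not tested.

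H2-T22 had 46.6 to 67.0 CPM in goblet-like cells and 18.9 to 27.8 CPM in mature enterocyte-like cells, ranges that did not overlap, as for 39.1% of 11351 genes between these classes. H2-M3 had 15.4, 16.2 and 16.6 CPM (Itgb7 KO) and 11.5, 12.7 and 13.4 CPM (wild type) in goblet-like cells, against 2.36 to 3.46 CPM in mature enterocyte-like cells. In secretory progenitor-like cells the values were 27.3 to 52.9 CPM for H2-T22 and 6.65 to 17.3 CPM for H2-M3. The 3 genes with a goblet peak thus differed from H2-T3 and H2-Q1, which were low there in every library.

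Cd1d1 was rare outside enteroendocrine-like cells. There it had 13.7, 58.5 and 70.9 CPM in the libraries labelled Itgb7 KO and 2.84, 65.7 and 47.7 CPM in the wild-type libraries. Replicate 1 of both groups was low, from 17 and 3 UMIs. In all, 200 of the 473 Cd1d1 UMIs came from the 635 enteroendocrine-like cells, which is 37.9 CPM (exact Poisson 95% interval 32.8 to 43.6). In the 4675 mature enterocyte-like cells 7 UMIs gave 0.126 CPM (interval 0.0506 to 0.259). The 6 libraries did not overlap between these classes, as for 35.3% of 12631 genes. Among enteroendocrine clusters the Neurog3 cluster had a pooled 54.1 CPM (library median 59.8), the peptide hormone cluster 38.9 CPM (53.8) and the enterochromaffin (serotonin) cluster 6.12 CPM (10.4). Libraries contribute unequally to these clusters, and the lowest library was at 9.18 CPM in the Neurog3 cluster and at 0 in the other two. The 92 tuft-like cells, too few per library for a test, had 14 Cd1d1 UMIs, or 16.7 CPM (interval 9.15 to 28.1). A secretory progenitor-like cluster of 241 cells had 10.4 CPM.

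The secretory classes were set against mature enterocyte-like cells with edgeR, on counts summed per library and class with library as a block. These 2 comparisons were added after the class levels had been seen, so the tests describe the sizes and do not stand as independent evidence. Goblet-like against mature enterocyte-like cells called 7 of the 8 members tested at an adjusted p under 0.05, where 70.3% of all genes tested were called (34.6% higher and 35.7% lower). H2-M3 (log2 fold change 2.28 ± 0.11, SE), H2-T22 (1.44 ± 0.08), H2-T23 (1.43 ± 0.10) and Cd1d1 (3.39 ± 0.45) were higher. H2-Q1 (-4.96 ± 0.13), H2-T3 (-3.68 ± 0.15) and H2-Q2 (-1.997 ± 0.07) were lower. H2-Q4 was not called (-0.18, edgeR adjusted p = 0.0649), but was called lower with library totals (-0.26), with doublets kept (-0.39), under both other clusterings (-0.20 and -0.28) and without replicate 1 of the wild-type group (-0.22). Of the classical genes B2m (-0.90) was lower in goblet-like cells. H2-K1 (0.20) and H2-D1 (0.23) were called higher, but neither with library totals (0.12 and 0.14) or with doublets kept (0.06 and 0.12). H2-D1 was also not called with class I genes allowed in clustering (0.18) or without replicate 2 (0.19) or 3 (0.16) of the wild-type group.

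Enteroendocrine-like against mature enterocyte-like cells called 5 of the 8 members, where 63.5% of all genes tested were called (32.8% higher and 30.7% lower). Cd1d1 was higher (log2 fold change 7.73 ± 0.33, SE). H2-Q1 (-5.93 ± 0.33), H2-T3 (-3.05 ± 0.19) and H2-Q2 (-1.38 ± 0.19) were lower. H2-T22 was also called lower at -0.46, but not with library totals in place of TMM scaling (-0.05), which moved the median of all genes by 0.42 here. That call was also lost with DESeq2 (-0.42), without replicate 1 (-0.32) or 2 (-0.41) of the Itgb7 KO group and without replicate 1 of both groups (-0.31). H2-T23 (0.09), H2-M3 (0.32) and H2-Q4 (-0.35) were not called, but H2-T23 was called with library totals (0.52). H2-Q4 was called lower without replicate 1 of the wild-type group (-0.39) or of both groups (-0.45), with doublets kept (-0.48), without a filter on low counts (-0.42) and with class I genes allowed in clustering (-0.45).

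Crypt cells (stem-like, transit-amplifying-like and secretory progenitor-like; 10835 cells) were compared with villus cells (lower-villus and mature enterocyte-like; 7861 cells) in each library. H2-T3 had 44.1, 57.9 and 39.9 CPM (Itgb7 KO) and 45.7, 42.7 and 38.9 CPM (wild type) in the crypt, against 106, 124 and 83.7 CPM (Itgb7 KO) and 108, 95.7 and 79.6 CPM (wild type) in the villus. H2-Q1 had 4.31, 3.86 and 2.11 CPM (Itgb7 KO) and 3.13, 3.50 and 2.95 CPM (wild type) in the crypt, against 37.3, 38.9 and 28.1 CPM (Itgb7 KO) and 28.8, 38.3 and 23.2 CPM (wild type) in the villus. The ranges of crypt and villus did not overlap for either gene, as was the case for 44.6% of the 11396 genes with a mean of at least 1 CPM in either.

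H2-Q2 had 61.1, 82.4 and 80.6 CPM (Itgb7 KO) and 42.2, 65.5 and 54.9 CPM (wild type) in the crypt, against 203, 279 and 275 CPM (Itgb7 KO) and 166, 238 and 146 CPM (wild type) in the villus. H2-T23 had 15.6, 25.8 and 28.5 CPM (Itgb7 KO) and 9.53, 14.1 and 15.5 CPM (wild type) in the crypt, against 28.3, 49.7 and 47.8 CPM (Itgb7 KO) and 17.7, 27.0 and 28.1 CPM (wild type) in the villus. Every library showed the villus higher for both genes, though the H2-T23 ranges overlapped between libraries. H2-T22 differed less, with 12.5 to 24.1 CPM in the crypt and 19.6 to 29.1 CPM in the villus. The crypt is a pool of classes, and by mean its secretory progenitor-like cells ran the other way for H2-T23 and H2-T22. They had 41.6 and 39.6 CPM, against 34.6 and 22.1 CPM in mature enterocyte-like cells.

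Cd1d1 and H2-M3 ran the other way. Cd1d1 had 0.72, 1.44 and 1.77 CPM (Itgb7 KO) and 0.76, 1.62 and 1.19 CPM (wild type) in the crypt, against 0, 0.11 and 0.32 CPM (Itgb7 KO) and 0.06, 0.20 and 0.15 CPM (wild type) in the villus. H2-M3 had 3.38 to 4.77 CPM in the crypt and 1.99 to 3.36 CPM in the villus, and was higher in the crypt of 6 of 6 libraries. Its mean in transit-amplifying-like cells was 3.01 CPM, beside 3.10 CPM in mature and 2.36 CPM in lower-villus enterocyte-like cells. H2-Q4 had 20.7 to 33.3 CPM in the crypt and 18.4 to 25.4 CPM in the villus.

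**Figure D2:**
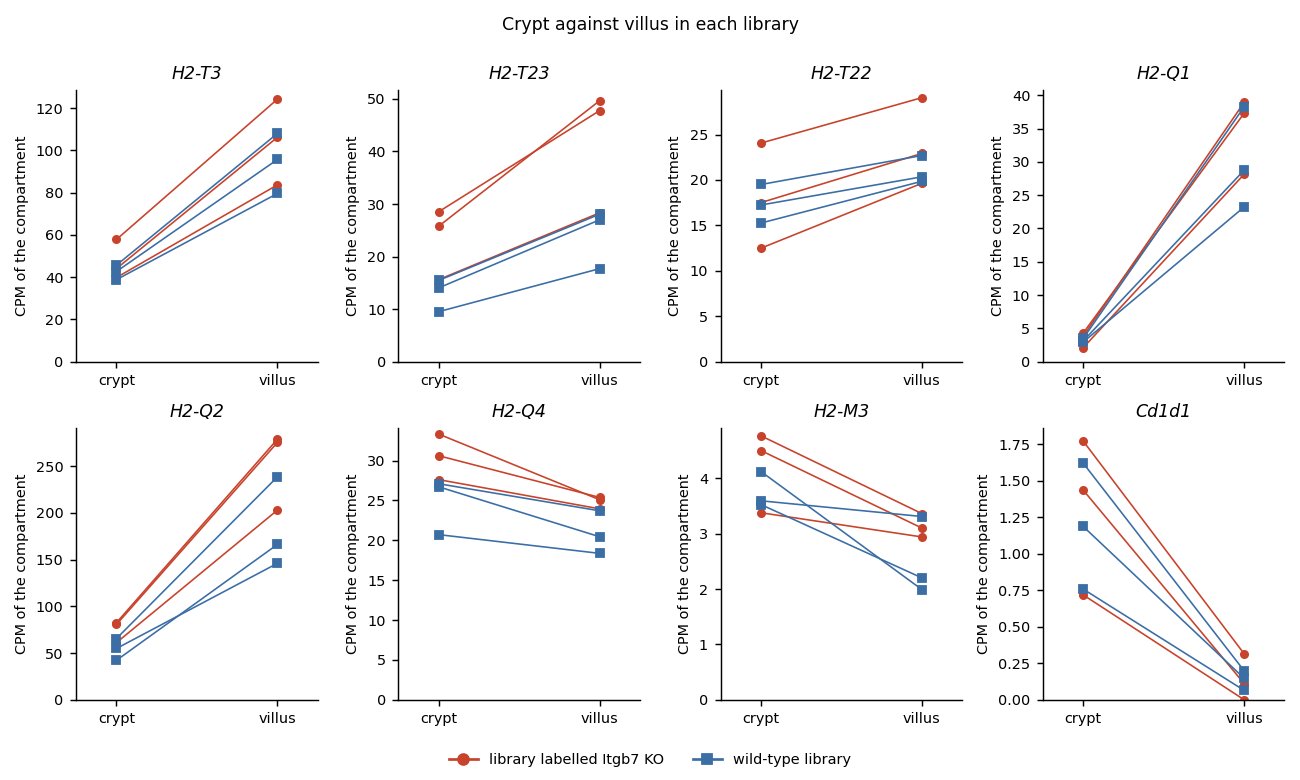
CPM (linear y axis, from 0) of 8 nonclassical class I transcripts in crypt and villus cells, with a line joining the compartments of each library; circles are libraries labelled Itgb7 KO and squares wild-type libraries. The lines of H2-T3, H2-T23, H2-T22, H2-Q1 and H2-Q2 all end higher in the villus, and those of Cd1d1, H2-M3 and H2-Q4 all end lower.

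The edgeR test called 7 of the 8 members tested between crypt and villus, where 80.4% of 12549 genes were called (41.0% higher and 39.4% lower in the crypt). A share this close to the background is not a result about the family, and its sizes carry the description. H2-Q1 was lowest in the crypt relative to the villus, at -3.44 ± 0.08 (log2 fold change with its SE; edgeR adjusted p = 1.34e-15), followed by H2-Q2 at -1.93 ± 0.06 and H2-T3 at -1.33 ± 0.04. H2-T23 had -1.06 ± 0.05 and H2-T22 -0.51 ± 0.06. The classical H2-K1 (-0.60), H2-D1 (-0.69) and B2m (-0.53) lay between the last 2 of these values. The median was -0.79 over the 8 members and 0.02 over all genes.

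Higher in the crypt were Cd1d1 (log2 fold change 2.999 ± 0.31, SE) and H2-M3 (0.35 ± 0.13, edgeR adjusted p = 0.0189). H2-M3 was not called without replicate 1 of the wild-type group (0.24, edgeR adjusted p = 0.0940) or of both groups (0.22), with DESeq2 (0.33), against mature enterocyte-like cells alone (0.18), or within the Itgb7 KO (0.26) or the wild-type (0.43) libraries alone. H2-Q4 was not called (0.10 ± 0.05, edgeR adjusted p = 0.0814), but was called higher with library totals (0.28), which moved the median of all genes by 0.18, and with stem-like cells alone as the crypt (0.23). It was also called without replicate 3 of the Itgb7 KO group (0.12), without replicate 2 of the wild-type group (0.16), without a filter on low counts (0.13) and under both other clusterings (0.11 and 0.12). In each of these 8 members the direction was the same in 6 of 6 libraries, and each had the smallest exact paired permutation p that 6 libraries allow, 0.03125.

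Lists of genes around the class I pathway were counted in the same comparison, in which 80.4% of all genes were called and 39.4% were lower in the crypt. Of the 13 genes of peptide supply and loading, 12 were lower in the crypt and 0 higher, with a list median of -0.58. They included the transporter subunits Tap2 (-1.31) and Tap1 (-0.87), the immunoproteasome subunit Psmb10 (-0.68) and the chaperone Canx (-0.67). With library totals Pdia3 (-0.07) and Tapbpl (-0.06) were not called. All 7 genes of lipid and metabolite loading were lower (median -0.52), led by Mttp (-2.23) and the protease Ctss (-1.37). Mttp transfers lipids onto lipoproteins and onto CD1d. It is also a marker that named the mature enterocyte-like class, so its direction here was partly set by the naming. The other genes of this list were also higher in the villus in this fit, where Cd1d1 itself was at 0.32 CPM or less. Tapbpl is on both lists, and with library totals Ctsl (-0.13), Ap3b1 (-0.07) and Tapbpl were not called. Ctsl was called higher with stem-like cells alone as the crypt (0.36). It was not called within the Itgb7 KO libraries alone (-0.23) or without replicate 1 of both groups (-0.14). Of 10 regulators of class I transcription, 7 were lower, such as Irf1 (-0.69), and 1 was higher, Rfxap (0.61), a subunit of the RFX complex. Among the lower ones Irf2 (-0.25) was not called with library totals (-0.07).

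A further list held 20 other genes, most of them nonclassical or class I-like, of which 19 had a row and 8 were tested. Of these 8, 6 were called, a share near that of all genes. Lower in the crypt were H2-M2 (-2.34), the antibody receptor subunit Fcgrt (-1.50) and H2-Q10 (-0.48). Higher were H2-Q7 (1.300), H2-Q6 (0.79) and Raet1e (0.67), a ligand of NKG2D. Over all epithelial cells H2-Q6 had 4.23 CPM in replicate 1 of the Itgb7 KO group, against 0.767 to 1.26 CPM in the other 5 libraries. Without that library it was not called (0.25, edgeR adjusted p = 0.399), nor with DESeq2 (0.68) or without replicate 1 of the wild-type group (0.70). H2-Q7 had 16.5, 4.22 and 3.07 CPM (Itgb7 KO) against 3.14, 2.41 and 3.29 CPM (wild type) over all epithelial cells, and was still called without replicate 1 of the Itgb7 KO group. Raet1e was not called with DESeq2 (0.61), without replicate 2 of the Itgb7 KO group (0.57) or without replicate 1 of the wild-type group (0.56). Of 10 receptors on lymphocytes, 7 had a row and only Klrk1 was tested. It was called lower in the crypt (-0.42), but not with library totals (-0.23) or without replicate 2 of the Itgb7 KO group (-0.29).

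The crypt to villus difference was also compared between genotypes by an interaction term. None of the 8 members was called or had an unadjusted p under 0.05, and the lowest adjusted p among them was 0.9999. Over all 12549 genes edgeR called 0 (0.00% called), 398 had an unadjusted p under 0.05 and DESeq2 called 0.

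Villus cells were further split by zonation scores that used none of the members. Tip and base were the upper and lower tertile of the villus cells of each library. The tip list was Ada, Nt5e, Slc28a2, Creb3l3, Klf4 and Egfr. The base list was Reg1, Reg3b, Reg3g, Rbp7, Dmbt1 and Prss32. Ada stood at 326% of its mature enterocyte level in crypt cells here. How well the score follows height on the villus was not tested. H2-T3 was lower at the tip, with 104, 115 and 73.4 CPM (Itgb7 KO) and 99.3, 90.2 and 79.4 CPM (wild type), against 110, 130 and 91.1 CPM (Itgb7 KO) and 116, 107 and 86.3 CPM (wild type) at the base. Lower in 6 of 6 libraries, it differed by -0.22 ± 0.04 (log2 fold change with its SE; edgeR adjusted p = 0.000409). H2-Q2 was called higher at the tip (0.16 ± 0.05, edgeR adjusted p = 0.0328) and was higher in 5 of 6 libraries. That call was lost with DESeq2 (0.16, adjusted p = 0.254), under both other clusterings (0.018 at Leiden resolution 1.0 and 0.09 with class I genes allowed) and with doublets kept (0.14). It was lost too without replicate 1 of the Itgb7 KO group (0.09), replicate 1 (0.17) or 2 (0.11) of the wild-type group or replicate 1 of both (0.09).

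These were 2 of the 7 members tested for tip against base, where 9.49% of 10418 genes were called (4.17% higher and 5.33% lower). H2-T22 (-0.23), H2-T23 (-0.17), H2-M3 (-0.14), H2-Q1 (0.15) and H2-Q4 (0.11) were not called. At Leiden resolution 1.0 H2-T22 (-0.30) and H2-T23 (-0.26) were called lower, H2-T22 also with class I genes allowed in clustering (-0.30). B2m (-0.17) and H2-D1 (-0.19) were lower at the tip and H2-K1 (-0.03) was not called. H2-Q1 thus had no called difference between tip and base by these scores, whereas between the villus classes it was higher in mature than in lower-villus enterocyte-like cells in 6 of 6 libraries.

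By a score of regional genes, H2-Q1 and H2-Q2 had the largest differences among the 7 members tested. Distal and proximal enterocytes were the upper and lower tertile of villus cells by that score, and no label gave position along the intestine. The distal list was Fabp6, Slc10a2, Slc51a, Slc51b and Fgf15. The proximal list was Lct, Gsta1, Adh6a, Fabp1, Apoa4 and Cyp2b10. Fabp1, Apoa4 and Fabp6 are also markers that named the mature enterocyte-like class. H2-Q1 itself differed between the mature and lower-villus cells pooled here. How well the score follows region rather than maturity was not tested. H2-Q1 had 15.6, 16.8 and 11.8 CPM (Itgb7 KO) and 12.3, 14.0 and 12.1 CPM (wild type) in distal cells, against 66.5, 67.5 and 45.4 CPM (Itgb7 KO) and 52.0, 65.8 and 34.5 CPM (wild type) in proximal cells. H2-Q2 had 110, 193 and 212 CPM (Itgb7 KO) and 83.0, 130 and 99.0 CPM (wild type) in distal cells, against 311, 381 and 346 CPM (Itgb7 KO) and 266, 342 and 187 CPM (wild type) in proximal cells. Each library had less of both genes in distal cells.

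Of the 7 members tested for distal against proximal, 5 were called, all lower in distal cells, where 42.7% of 10510 genes were called (21.9% lower). The log2 fold change was -2.06 ± 0.09 (SE) for H2-Q1, -1.26 ± 0.09 for H2-Q2 and -0.39 ± 0.07 for H2-T23. H2-Q4 had -0.32 ± 0.09 (edgeR adjusted p = 0.00936), a call lost with DESeq2 (adjusted p = 0.0538) and without replicate 2 of the wild-type group (edgeR adjusted p = 0.0592). H2-T3 had -0.18 ± 0.05 (edgeR adjusted p = 0.00822), but its CPM was lower in only 3 of 6 libraries, and the call was lost with library totals (-0.10) and without replicate 1 of both groups (-0.13). H2-T22 (-0.16) and H2-M3 (-0.53) were not called, but H2-T22 was called lower under both other clusterings (-0.21 and -0.22) and H2-M3 without replicate 2 of the wild-type group (-0.70).

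The difference between distal and proximal cells was not shared by the classical genes at that size. H2-K1 was called at -0.22 (not without replicate 1 of both groups, -0.15). H2-D1 (0.05) and B2m (-0.02) were not called. Of the 13 genes of peptide supply and loading, 1 was lower, Tap2 (-0.29), and 2 were higher, Canx (0.28) and Pdia3 (0.15), both chaperones of the endoplasmic reticulum. The call of Tap2 was lost with DESeq2 and with library totals (-0.21), and that of Pdia3 with at least 8000 UMIs per cell (0.11) and with class I genes allowed in clustering (0.10). Of 7 genes of lipid and metabolite loading, Mttp was lower (-1.31) and Psap, the precursor of the saposins, was higher (0.56). The list medians were -0.02 and 0.00, beside 0.02 over all genes.

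**Figure D3:**
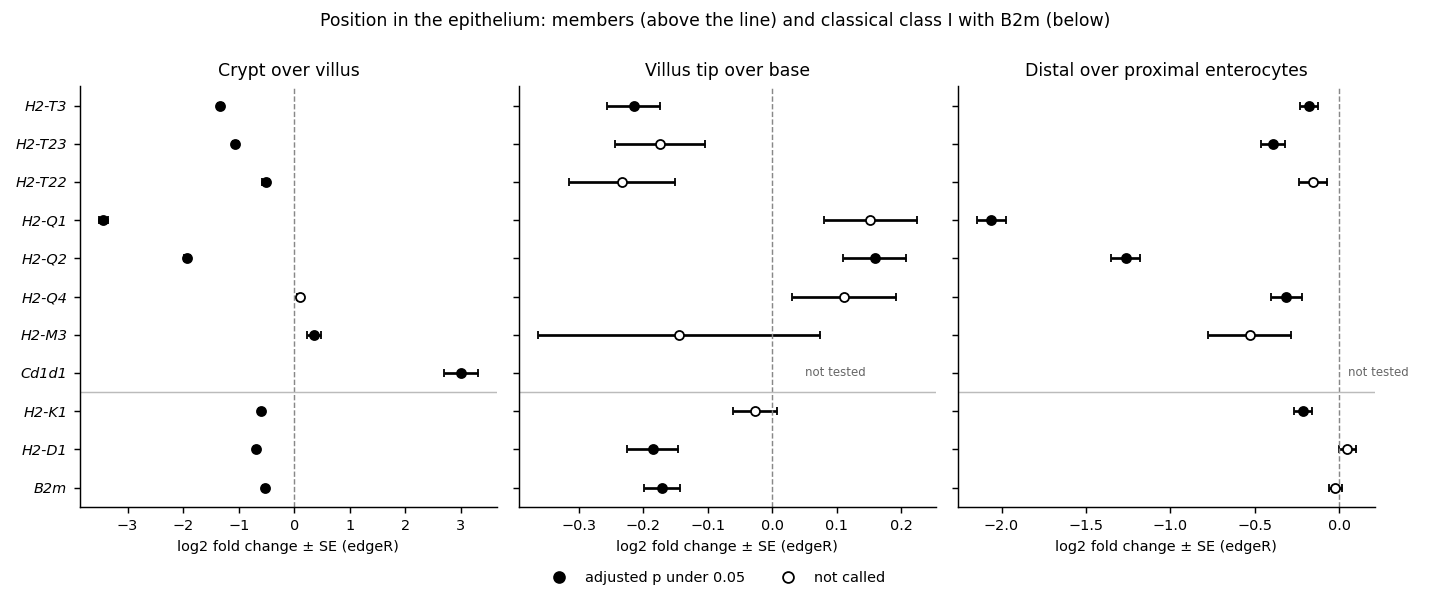
Log2 fold changes of the 3 comparisons of position (x axis, edgeR, bars for the SE; panels differ in scale) for the members above the line and H2-K1, H2-D1 and B2m below it; filled points had an adjusted p under 0.05. H2-Q1 and H2-Q2 lie far to the left for crypt over villus and for distal over proximal cells, whereas the values for tip over base all lie between -0.23 and 0.16.

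Between genotypes, the mean of each of the 8 members was higher in the libraries labelled Itgb7 KO, but none passed the test. Over all epithelial cells H2-T23 had 26.7, 47.0 and 51.4 CPM in the libraries labelled Itgb7 KO, against 16.0, 27.3 and 32.1 CPM in the wild-type libraries. H2-Q2 had 90.5, 154 and 155 CPM in the libraries labelled Itgb7 KO, against 67.8, 113 and 87.8 CPM in the wild-type libraries. Replicate 1 was the lowest of its group for both genes, and at each replicate number the library labelled Itgb7 KO was the higher, but the ranges overlapped.

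The log2 fold change, Itgb7 KO over wild type, was 0.71 ± 0.24 (SE) for H2-T23, with an unadjusted p of 0.0217 and an adjusted p of 0.952 in edgeR. For H2-Q2 it was 0.54 ± 0.19 (unadjusted p = 0.0242, edgeR). The other 6 members had 0.57 (Cd1d1), 0.29 (H2-Q1), 0.26 (H2-Q4), 0.21 (H2-M3), 0.18 (H2-T3) and 0.06 (H2-T22). These sums mix the cell classes, whose shares differ between libraries. Enteroendocrine-like cells, the class highest in Cd1d1, were 70, 172 and 164 of 2574, 5158 and 4046 epithelial cells (Itgb7 KO). In the wild-type libraries they were 32, 104 and 93 of 2577, 4542 and 4604. The part of class shares in these values was not tested. In sum 0 of the 8 members tested were called, where 0.00742% of 13478 genes were called (1 gene), and 429 genes had an unadjusted p under 0.05. DESeq2 called 26 genes and 0 members. All 8 values were positive, with a median of 0.27 beside -0.005 over all genes. Of them, 3 turned negative under an alternative. H2-T22 was -0.23 without replicate 1 of the Itgb7 KO group, -0.055 without replicate 2 of the wild-type group and -0.18 without replicate 1 of both. H2-M3 was -0.011 without replicate 1 of the Itgb7 KO group, and Cd1d1 was -0.061 with at least 8000 UMIs per cell.

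H2-M3, with 6.52, 5.21 and 4.89 CPM in the libraries labelled Itgb7 KO against 4.68, 4.85 and 4.61 CPM in the wild-type libraries, was the only 1 of the 8 whose groups did not overlap. Among the 11285 genes with a mean of at least 1 CPM, 4.41% did not overlap. For 3 against 3 libraries the smallest exact permutation p is 0.1, so single values cannot pass 0.05 by that test. H2-T3 had 45.9, 75.3 and 50.8 CPM (Itgb7 KO) against 47.5, 50.9 and 47.5 CPM (wild type), so that its mean rests on replicate 2 of the Itgb7 KO group.

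Markers of cells other than epithelium were rare. The summed level of the 10 T cell markers with a row was 0.0524, 0.0393 and 0.0394 CPM (Itgb7 KO) against 2.94, 0.0901 and 0.0699 CPM (wild type), with none of the 10 at 0 over all libraries. In replicate 1 of the wild-type group it was 2.15 to 4.85 CPM in each of the 8 classes tested. The myeloid markers summed to 0.589 to 2.62 CPM (Itgb7 KO) and 0.454 to 3.35 CPM (wild type), with 1 of 6 at 0, and 3 of the 5 markers of stroma or endothelium were at 0. The part of these cells in the genotype values was not tested.

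**Figure D4:**
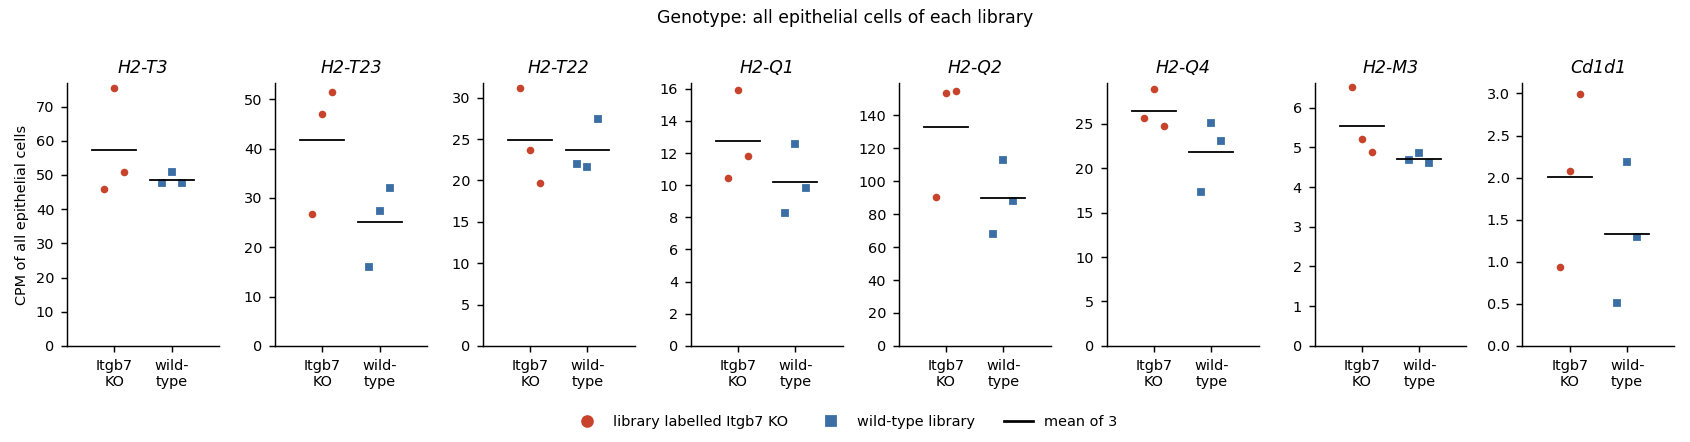
CPM over all epithelial cells (linear y axis, from 0) of 8 nonclassical class I transcripts in each library, with a bar for the mean of 3; circles are libraries labelled Itgb7 KO and squares wild-type libraries. The means are higher on the Itgb7 KO side in all 8 panels, but the groups overlap in 7 of them, and none passed the edgeR test.

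By cell class, 52 tests of members in 8 classes gave 0 calls, 9 unadjusted p under 0.05 and a lowest edgeR adjusted p of 0.903. The share of all genes called was at most 0.0197% in any class, in lower-villus enterocyte-like cells. Values were positive in 46 of the 52. H2-T23 was positive in 8 of 8 classes, with log2 fold changes of 0.38 in Paneth-like (-0.048 without replicate 1 of the wild-type group) to 0.92 in stem-like cells, and H2-Q2 in 8 of 8, with 0.25 in Paneth-like to 0.77 in enteroendocrine-like cells. H2-Q4 was positive in 8 of 8 as well, from 0.09 to 0.48, but in goblet-like cells it was -0.074 without replicate 1 of the Itgb7 KO group and -0.11 without replicate 1 of both groups. The negative values were 3 of H2-T22 and 1 each of H2-T3, H2-M3 and Cd1d1. The lowest was H2-T22 in enteroendocrine-like cells, with 16.9, 19.9 and 18.2 CPM in the libraries labelled Itgb7 KO and 20.8, 26.3 and 28.6 CPM in the wild-type libraries (log2 fold change -0.50). These classes come from the same libraries, so their agreement is not independent.

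Stem-like cells had 18.3, 28.5 and 32.4 CPM of H2-T23 in the libraries labelled Itgb7 KO, against 9.45, 14.4 and 16.8 CPM in the wild-type libraries, with no overlap, as for 7.74% of 11193 genes in that class. Its log2 fold change there was 0.92 ± 0.25 (SE, edgeR unadjusted p = 0.00464, adjusted p = 0.967), where 1 of 10293 genes (0.00972%) was called. H2-T23 also had no overlap in transit-amplifying-like cells (7.19% of genes) and mature enterocyte-like cells (9.21% of genes). In goblet-like cells it was called without replicate 1 of both groups (0.94, edgeR adjusted p = 0.0483), which leaves 2 libraries against 2, and with all 6 libraries it had 0.88 ± 0.40 (SE, edgeR adjusted p = 0.9999), where 0.00948% of genes were called. Blocking on the replicate number, the tests by class called 42 genes in place of 4, and 0 members in both.

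Genes around the members were not called by genotype either. H2-D1 had a log2 fold change of 0.44 (edgeR unadjusted p = 0.00964), Tap1 0.81 (unadjusted p = 0.0127), B2m 0.32 and Nlrc5, a transactivator of class I genes, 2.04, from at most 0.926 CPM in the libraries labelled Itgb7 KO and at most 0.245 CPM in the wild-type libraries. Of the 13 genes of peptide supply and loading 0 were called and 6 had an unadjusted p under 0.05, with a median of 0.32; over all genes 3.18% had such a p. The classical genes with B2m also had a median of 0.32, the regulators of class I transcription 0.43 and the genes of lipid and metabolite loading 0.06, with 0 called in each.

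Likeness of pattern was described by Pearson correlation of log2(CPM + 1) over 48 sums (8 classes in 6 libraries) with 7171 genes of at least 10 CPM. These sums share libraries, depth and class structure, so the values are descriptive. H2-T3 was most like Ccl25 (0.985), the chemokine that draws CCR9-bearing lymphocytes to the small intestine, followed by Pnp2 (0.974) and Tkfc (0.972). H2-Q1 was most like 2010106E10Rik (0.961), Ckmt1 (0.956) and Mpp1 (0.941), and H2-Q2 was most like Hagh (0.907), Prdx5 (0.900) and Gramd3 (0.898).

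Among the goblet-peaked members H2-T23 was most like Jund (0.947), Tsc22d1 (0.902) and Scamp1 (0.901). H2-T22 was most like Clptm1l (0.927), Sec61b (0.924), a subunit of the translocon of the endoplasmic reticulum, and Rpn1 (0.921), a subunit of the oligosaccharyltransferase. For the more even H2-Q4 the values were lower, at 0.845 for G3bp2, 0.843 for Man1a2 and 0.840 for Ppig. Between members, H2-T3 and H2-Q1 had 0.799, H2-T23 and H2-T22 had 0.653, and H2-T3 and H2-T23 had -0.531. H2-T3 followed B2m (0.860) but not H2-K1 (0.024) or H2-D1 (0.056), and H2-T23 had 0.704 with H2-D1.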

How the data were processed

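The authors deposited raw UMI counts for each barcode, whole numbers with no scaling applied. Tools named in the submitters' processing notes are Cell Ranger 2.1.1, Seurat and bcl2fastq 2.17.1.14, with the mm10 build. Barcodes needed 500 genes, 1000 UMIs and at most 25% mitochondrial UMIs (108 failed). The automatic Scrublet threshold marked under 0.5% in most libraries, so the highest-scoring 0.8% per 1000 barcodes were removed instead (977). Cells were clustered (Leiden, resolution 1.5, scanpy 1.11.5, 31 clusters, library corrected by an own Harmony-type method) without class I, class II and interferon genes. Clusters were named from marker lists; 2 stayed unnamed and entered no comparison.

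Counts summed per library and class were tested over all genes with edgeR 4.0.16 (quasi-likelihood, TMM, filterByExpr, R 4.3.3), Benjamini-Hochberg adjusted at 0.05. DESeq2 1.42.0 was an alternative. Scripts were tested on simulated data with a fixed spread. There the genotype fit recovered 54 of 100 genes changed by a log2 fold of 1 over all epithelial cells. In enteroendocrine-like cells it recovered 34 of 100. Differences of that size can thus be missed, and the lack of a call does not show the lack of a difference. Exact permutation tests used log2(CPM + 1). Shared sequence was searched with BLAST+ 2.17.0+. No class was tested with under 20 cells in a library. The members, lists and markers were chosen with earlier results of these data known. Named genes were all members, H2-K1, H2-D1, B2m, Tap1, Nlrc5, Itgb7, up to 4 called genes of each list with the largest change, and the 3 genes most like each member with at least 10 CPM; list genes outside these limits are not named, and 1 within them is not reported here. H2-T10 was not analysed here.

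Same-numbered libraries of the 2 groups deviated together over 13478 genes (correlations of 0.669, 0.281 and 0.280). Replicate 2 of the Itgb7 KO group correlated about as well with wild-type replicate 3 (0.270). Replicate 3 of the Itgb7 KO group correlated better with wild-type replicate 2 (0.478). Each deviation was taken from the mean of its own group, so these correlations depend on each other. By that check replicate 1 of both groups goes together, but it cannot decide whether the numbers 2 and 3 are paired. The pairing of replicate 1 comes from the data, not from the labels. The genotype fits reported have no block, and the replicate block is an alternative. Alternatives were other scalings, tools, filters, clusterings and libraries left out; leaving out replicate 1 of both groups, library totals and the goblet-like and enteroendocrine-like comparisons were added after seeing the data.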

Additional observations from a re-analysis of the deposited data

How the results depend on the processing

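Of 1085 alternative values of single members, 1019 kept their direction and side of the threshold, 23 lost a call, 25 gained one and 18 changed sign. All 18 were of values not called under either setting. Between genotypes over all epithelial cells, Cd1d1 was -0.061 with at least 8000 UMIs per cell, and H2-T22 was -0.18 without replicate 1 of both groups; leaving out each replicate gave -0.011 to 0.31 for H2-M3 and -0.23 to 0.22 for H2-T22. By class the same gave -0.048 to 0.80 for H2-T23 in Paneth-like cells and -0.074 to 0.19 for H2-Q4 in goblet-like cells, which was -0.11 without replicate 1 of both groups. For enteroendocrine-like against mature enterocyte-like cells, H2-Q4 was 0.072 with library totals; H2-T23 was -0.086 with class I genes allowed in clustering, -0.18 with doublets kept and -0.033 to 0.21 on leaving out each replicate. For tip against base, H2-M3 was 0.023 and H2-Q1 -0.039 at Leiden resolution 1.0; H2-M3 was also 0.060 when the villus was split at the median score, 0.069 without replicate 1 of both groups and -0.23 to 0.017 on leaving out each replicate.

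Of the counts, members called for tip against base were 1 with DESeq2, with doublets kept and without replicate 1 of both groups, and 1 to 2 on leaving out each replicate. Genes called there were 379 with DESeq2, 1793 at Leiden resolution 1.0 and 656 without replicate 1 of both groups, in place of 989. The interaction called 31 genes without a filter on low counts. Between genotypes over all epithelial cells, genes called were 26 with DESeq2, 14 without replicate 1 of both groups, 4 with the library serial numbers as a block and 0 to 1 on leaving out each replicate. By class they were 44 with DESeq2, 56 without a filter, 68 without replicate 1 of both groups, 42 with the replicate block, 58 with the serial number block and 0 to 5 on leaving out each replicate, in place of 4; 1 member was called, in the setting without replicate 1 of both groups. The replicate block changed no call of a member. The cause of these changes was not tested. With 5 libraries the exact test of the class order cannot reach 0.05, so it was not repeated on leaving out a library. Depth limits Mr1 (3 UMIs), Cd1d1 in villus cells and all members in tuft-like cells.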
